A study of Mus musculus with 8 samples.

Results

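The Hox genes, as found in 4 chromosomal clusters, were described on 8 arrays of mouse mammary tumour cells. Members were chosen by name alone: every non-control probe whose accession has a current symbol made of Hox, a cluster letter from a to d and a number. This gave 46 probes of 36 genes, out of 41174 probes and 18883 named genes on the array. The RefSeq table holds 39 such genes, and no probe was matched to Hoxc4, Hoxc6 or Hoxc11. The family was taken up because Hoxb7 and Hoxa7 were already known to be among the largest differences between knockdown and vector, so the differences in that contrast are given as a description, without p-values for Hox genes.

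All cells came from FVB mice with the polyoma middle T (PYMT) tumour model, and all had been treated with 50 uM camptothecin (CPT), a topoisomerase I poison, for 36 h. The Snd1 knockdown (3 arrays) was the wild-type line WTA with the lentiviral construct LKO1-shSnd1. The rescue cells were the Mtdh-knockout line KO2 with LmPGK-mMtdh-ires2-GFP (1 array) or with the same construct carrying the W391D point mutation (1 array), sorted for GFP. The vector control (3 arrays) was the line WTA with empty LKO1, and both WTA groups had been selected with puromycin. Snd1 is a nuclease-domain protein bound by Mtdh, and W391D is labelled as deficient in that binding. Each genotype is represented by a single line, and no untreated or unmanipulated cells were analysed here. The labels do not say whether replicates were separate cultures, so the spread between them may be technical.

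Hox genes encode homeodomain transcription factors that give cells along the body axis their position. Each cluster holds paralogs numbered from 1 at the end expressed early and towards the head to 13 at the end expressed late and towards the tail, and genes of equal number in different clusters descend from a common ancestor. Polycomb complexes keep the clusters silent and Trithorax and MLL complexes keep them active, retinoic acid turns on the low-numbered end, and the proteins bind DNA together with the TALE homeodomain cofactors Pbx and Meis. In the mammary gland, Hoxa9, Hoxb9 and Hoxd9 are jointly needed for the gland to develop in pregnancy in mice.

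Every value below is a log2 ratio of Cy5, the sample, over Cy3, a reference RNA mixed from 11 mouse cell lines, unless a difference is named. A log2 ratio of 0 means the same signal as in that mixture. Median Cy5 signals ran from 158 to 363 per array, over backgrounds of 61 to 72, and the number of arrays sets the precision. Across all probes, log ratios correlated at 0.983 to 0.995 among the knockdown arrays, at 0.982 to 0.993 among the vector arrays and at 0.988 between both rescue arrays. Replicate 1 of the knockdown and of the vector shared a slide, replicates 2 and 3 of both shared another, and each rescue array had its own slide. Snd1 itself had log2 ratios of -3.23, -3.33 and -3.44 in the knockdown, -1.92 and -1.98 in the wild-type and W391D rescues, and -2.49, -2.40 and -2.43 in the vector cells. The knockdown was 1.86-fold below the vector (log2 difference -0.90 ± 0.06 SE, limma adjusted p = 1.04e-05), as its label says. All 15 epithelial markers, such as Epcam, Cdh1 and Krt8, had Cy5 well above background in every group.

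Promoter windows of RefSeq (GRCm38.p6, 250 bases before to 50 bases after the start of transcription, so that the start is followed by the last 50 bases) were matched for 21 of the 36 genes, with 23 windows. The largest differences between knockdown and vector among genes with a window and no disagreeing probe were those of Hoxa7, Hoxd8 and Hoxa5, and Hoxa13 is shown beside them as a member that stayed level on every array. Capitals mark the CpG dinucleotides, at which promoters can be methylated. Hoxa7 lies at chr6:52218524-52218823 on the minus strand, with 9 CpG. Hoxd8 lies at chr2:74704365-74704664 on the plus strand, with 6 CpG. Hoxa5 lies at chr6:52204538-52204837 on the minus strand, with 29 CpG. Hoxa13 lies at chr6:52260831-52261130 on the minus strand, with 45 CpG and a G+C content of 81.0%.
Hoxa7: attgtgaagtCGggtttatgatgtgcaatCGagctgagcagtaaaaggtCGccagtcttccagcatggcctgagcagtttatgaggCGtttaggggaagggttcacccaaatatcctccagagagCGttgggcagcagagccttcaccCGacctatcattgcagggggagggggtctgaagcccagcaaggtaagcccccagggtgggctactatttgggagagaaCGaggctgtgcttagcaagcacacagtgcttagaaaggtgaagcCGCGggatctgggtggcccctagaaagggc
Hoxd8: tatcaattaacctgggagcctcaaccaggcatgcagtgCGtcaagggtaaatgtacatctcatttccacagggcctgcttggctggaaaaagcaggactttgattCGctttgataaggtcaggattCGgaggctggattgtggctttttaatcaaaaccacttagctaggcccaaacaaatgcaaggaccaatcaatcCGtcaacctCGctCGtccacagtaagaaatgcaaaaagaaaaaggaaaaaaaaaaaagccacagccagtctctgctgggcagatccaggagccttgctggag
Hoxa5: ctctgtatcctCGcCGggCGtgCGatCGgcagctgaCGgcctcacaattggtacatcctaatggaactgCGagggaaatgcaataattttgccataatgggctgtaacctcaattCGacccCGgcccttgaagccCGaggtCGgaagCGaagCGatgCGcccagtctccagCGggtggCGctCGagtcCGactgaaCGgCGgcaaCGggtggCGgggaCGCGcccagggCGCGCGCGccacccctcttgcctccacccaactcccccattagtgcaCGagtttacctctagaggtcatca
Hoxa13: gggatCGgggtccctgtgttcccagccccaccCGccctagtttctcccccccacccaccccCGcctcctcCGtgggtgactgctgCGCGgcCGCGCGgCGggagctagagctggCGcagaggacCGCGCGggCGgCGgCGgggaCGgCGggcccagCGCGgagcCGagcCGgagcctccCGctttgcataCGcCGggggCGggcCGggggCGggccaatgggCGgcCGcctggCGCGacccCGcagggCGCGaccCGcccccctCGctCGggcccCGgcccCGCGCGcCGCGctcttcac

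The printed windows of genes with large differences thus ran from 6 CpG (Hoxd8) and 9 CpG (Hoxa7) to 29 CpG (Hoxa5). Windows not printed widen this range: those of Hoxa9 and Hoxd4, with differences of 1.75 and 1.67, held 4 CpG. A window of Hoxd11, whose difference was -0.006, also held 4 CpG. Across the 23 Hox windows the median was 15 CpG (4 to 45) with 57.3% G+C, against a median of 7 CpG and 52.7% G+C over 32851 RefSeq windows of the same length. The windows were searched on both strands for patterns of letters known to be bound by homeodomain proteins. TGATTNAT, a pattern bound by Hox and Pbx proteins together, was in 2 of the 23 Hox windows (8.70%) and in 3.22% of all windows. TGACAG, the Meis pattern, was in 2 (8.70%) against 19.2% of all windows, and TAATTA, a homeodomain core, in 2 (8.70%) against 5.29%. TAATTA reads the same on both strands, no match overlapped another in the Hox windows, and none of the patterns was found in the windows of Hoxa7, Hoxd8, Hoxa5 or Hoxa13.

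Against the vector cells, the knockdown cells had higher values for many Hox genes of paralog groups 1 to 9, and no Hox gene was called lower. Of the 36 genes, 31 had a Cy5 signal well above background on 3 or more of the 6 arrays and entered the fit over all 25674 features. Of these, 21 were called higher (limma, adjusted p under 0.05), 0 lower, and 10 were not called. Among all features, 23.7% were called higher and 21.1% lower, and because the family was taken up for this contrast nothing is read from the count of Hox genes. At least 2-fold higher were 16 Hox genes, against 2.27% of all features, and 5 of them were over 8-fold higher. Over all 36 genes the median log2 difference was 0.53, against 0.016 over all features. In 22 of the 36 genes, the 3 knockdown arrays lay above the 3 vector arrays, and in 0 below, against 24% and 20.6% of all features. Hoxc8 passed the filter only through the knockdown arrays.

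**Figure D1:**
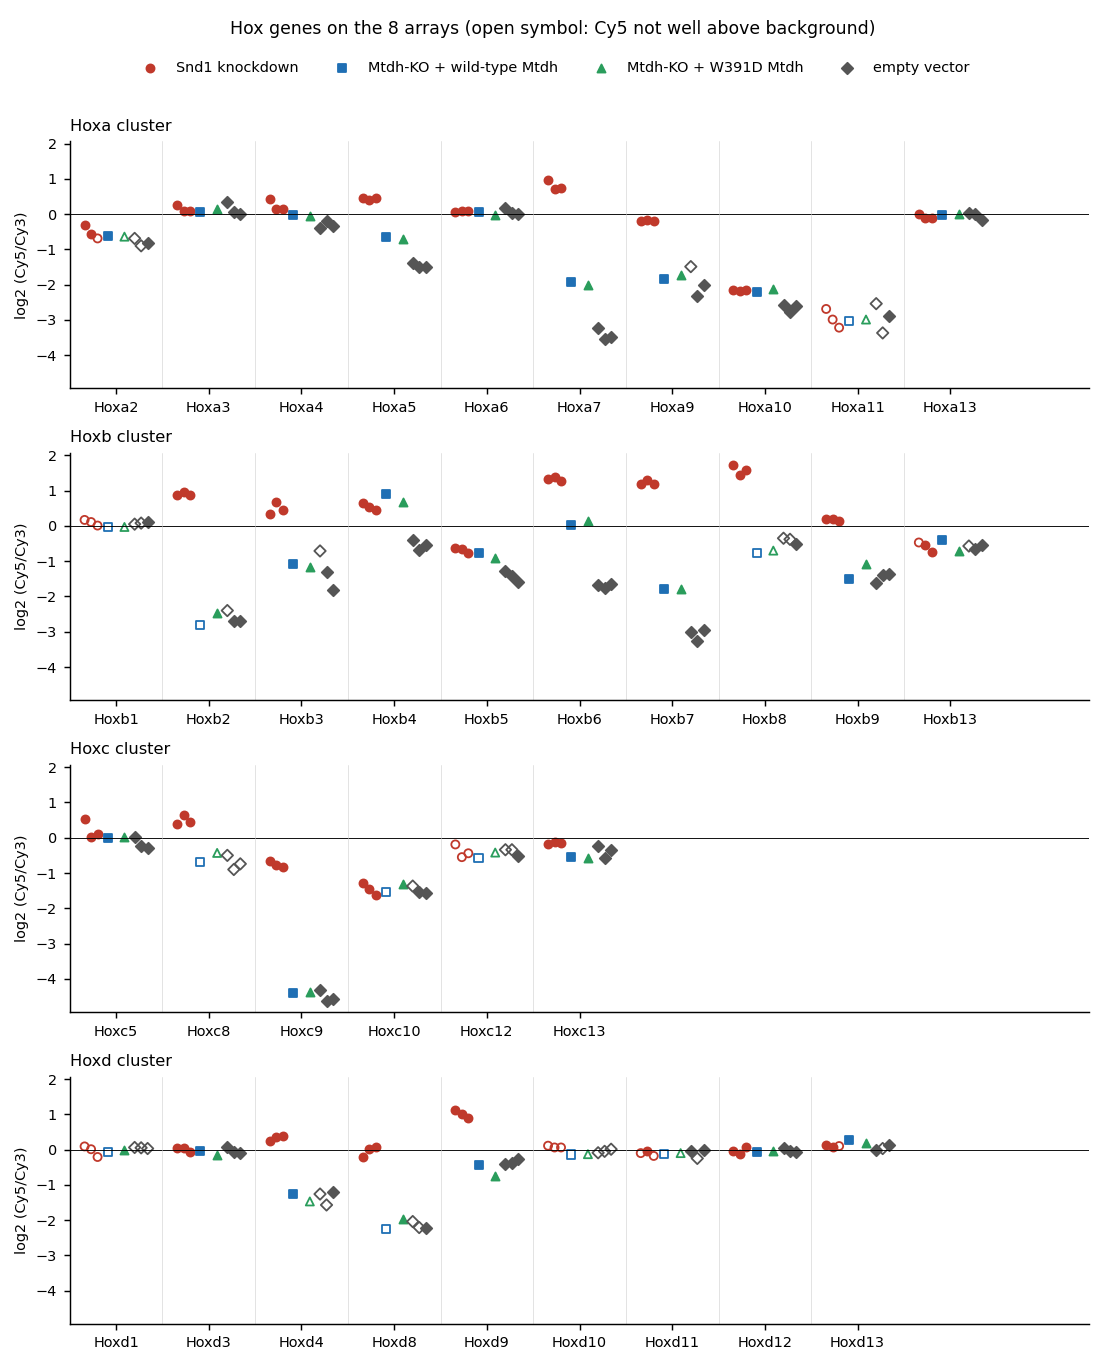
Log2 Cy5/Cy3 of 35 Hox genes with a probe (vertical axis) on all 8 arrays, by cluster and paralog number; each symbol is 1 array, in the order knockdown, wild-type Mtdh rescue, W391D rescue and vector, and open symbols have Cy5 not well above background. Knockdown arrays stand above vector arrays for genes such as Hoxa7, Hoxb7 and Hoxc9, whereas Hoxa13, Hoxd12 and Hoxa6 lie near 0 on every array.

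The paralogs of groups 1 to 4 are the head-ward genes, with roles in hindbrain and neck. Hoxb2, which patterns the hindbrain segment of the facial nerve, had log2 ratios of 0.89, 0.95 and 0.89 in the knockdown, -2.82 and -2.48 in the wild-type and W391D rescues, and -2.40, -2.71 and -2.71 in the vector cells. The knockdown stood alone at the top and the other 5 arrays lay together; 2 of the 3 vector arrays and 1 of the 2 rescue arrays had Cy5 well above background. The difference between knockdown and vector was 3.51 ± 0.09 (SE), or 11.4-fold.

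Hoxb4, known for expanding blood stem cells, was highest in the rescue cells, with the knockdown a little below them and the vector lowest. Its log2 ratios were 0.65, 0.54 and 0.44 in the knockdown, 0.91 and 0.69 in the rescues and -0.40, -0.68 and -0.53 in the vector cells, and the difference between knockdown and vector was 1.08 ± 0.08 (2.12-fold). As processed here, it was the smallest Hox difference past 2-fold, and Hoxb5, at 0.74, the next one below that line. With the software's log ratios Hoxb4 differed by 2.02 and Hoxb5 by 1.40, both past 2-fold.

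Hoxb3 had log2 ratios of 0.34, 0.69 and 0.46 in the knockdown, -1.08 and -1.17 in the rescues and -0.71, -1.32 and -1.83 in the vector cells. The vector arrays were spread more widely than for most other members, and the difference of 1.79 ± 0.25 was 1.06 between the arrays of replicate 1 and 2.15 on the slide of replicates 2 and 3. Its second, dimmer probe gave 1.98.

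Hoxd4 had log2 ratios of 0.24, 0.35 and 0.39 in the knockdown, -1.25 and -1.47 in the rescues and -1.26, -1.57 and -1.20 in the vector cells. Its difference between knockdown and vector was 1.67 ± 0.10 (3.18-fold), with Cy5 well above background on 1 of the 3 vector arrays. Both rescue arrays lay within the range of the vector arrays for Hoxb3 and for Hoxd4.

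The other members of groups 1 to 4 showed small or no differences. Hoxa2, which sets the identity of the second pharyngeal arch, was called at a difference of 0.28 ± 0.10, but the call was lost without knockdown replicate 1 (0.18), knockdown replicate 2 (0.29), vector replicate 2 (0.23) or vector replicate 3 (0.27). It was also lost without background correction (0.20), with the software's log ratios (0.69) and with the Cy5 channel alone (0.34). Hoxa4 was called at 0.55 ± 0.09, and its other probe gave 0.14; the call was lost with the Cy5 channel alone (0.66). Hoxa3 (0.02 ± 0.09) and Hoxd3 (0.04 ± 0.06) were measured on all 8 arrays and were not called. Hoxb1 and Hoxd1 were not tested, because too few arrays had Cy5 above background.

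The trunk genes of groups 5 to 8 held the largest differences. Hoxb7, a Hox gene often expressed in breast cancer cells, had log2 ratios of 1.20, 1.30 and 1.18 in the knockdown, -1.79 and -1.80 in the rescues, and -3.02, -3.27 and -2.96 in the vector cells. In unnormalized Cy5 signal these were 5404, 8116 and 7253 in the knockdown, 895 and 796 in the rescues, and 239, 308 and 367 in the vector cells. The 3 kinds of cells formed 3 separate levels, and the knockdown exceeded the vector by 4.31 ± 0.08, or 19.9-fold, the 7th highest difference of all features.

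Hoxa7, its paralog in the Hoxa cluster, whose window with 9 CpG is printed above, had log2 ratios of 0.97, 0.72 and 0.74 in the knockdown, -1.93 and -2.02 in the rescues, and -3.24, -3.55 and -3.48 in the vector cells. The Cy5 signals were 3794, 6973 and 6518 in the knockdown, 1082 and 1026 in the rescues and 195, 349 and 311 in the vector cells. The order was that of Hoxb7, with a difference between knockdown and vector of 4.23 ± 0.10 (18.8-fold).

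Hoxb6, the neighbour of Hoxb7, had log2 ratios of 1.33, 1.38 and 1.26 in the knockdown, 0.04 and 0.13 in the rescues and -1.68, -1.76 and -1.64 in the vector cells. The 3 levels were again separate, and knockdown and vector differed by 3.02 ± 0.05 (8.09-fold). Hoxa5, which is needed for lung development and has 29 CpG in its window, had log2 ratios of 0.46, 0.41 and 0.45 in the knockdown, -0.64 and -0.72 in the rescues and -1.39, -1.49 and -1.49 in the vector cells. Its difference was 1.90 ± 0.05 (3.73-fold).

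Hoxd8, whose window holds 6 CpG, had log2 ratios of -0.20, 0.02 and 0.06 in the knockdown, -2.26 and -1.96 in the rescues and -2.04, -2.21 and -2.21 in the vector cells. The rescue and vector values lay together, with Cy5 well above background on 1 of the 3 vector arrays, and the difference was 2.11 ± 0.08 (4.33-fold). Hoxc8, known in mice for early mammary placodes, had log2 ratios of 0.39, 0.64 and 0.46 in the knockdown, -0.68 and -0.43 in the rescues and -0.50, -0.90 and -0.74 in the vector cells. It was not well above background on any rescue or vector array, so its level there is only a bound. In the normalized Cy5 channel alone, without Cy3, its mean log2 level was 7.49 in the knockdown and 6.07 in the vector cells, or 6.10 with each vector array set to no less than its lowest well-measured signal, so that it was at least 2.62-fold higher on that scale. On the scale of log2 ratios the difference was 1.21 ± 0.11.

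Hoxb8, which blocks the maturation of myeloid cells when forced on, was higher in the knockdown on 1 of its 2 probes and level on the other. The brighter probe over the 8 arrays had log2 ratios of 1.74, 1.44 and 1.58 in the knockdown, -0.76 and -0.70 in the rescues and -0.35, -0.38 and -0.50 in the vector cells, a difference of 2.00 ± 0.08. The other probe had log2 ratios of 0.23, 0.07 and 0.12 in the knockdown, 0.11 and 0.11 in the rescues and 0.08, 0.10 and 0.13 in the vector cells, a difference of 0.04. The gene's direction therefore rests on 1 probe, which was well above background on 1 of the 3 vector arrays and on no rescue array.

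Hoxb5 was called at 0.74 ± 0.08, and all 3 knockdown arrays lay above the 3 vector arrays. Hoxa6 (0.02 ± 0.06) was not called. Hoxc5 (0.39 ± 0.14) had knockdown log2 ratios of 0.54, 0.03 and 0.10 against 0.03, -0.24 and -0.28 in the vector cells and was not called. Its Cy5 signal moved with the slide, at 264 (knockdown) and 136 (vector) in replicate 1, against 1880 to 2150 in replicates 2 and 3.

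Groups 9 to 13 are the tail-ward genes, and among them group 9 differed between knockdown and vector in all 4 clusters. Hoxc9, which specifies thoracic motor neurons, had log2 ratios of -0.66, -0.77 and -0.82 in the knockdown, -4.41 and -4.37 in the rescues and -4.32, -4.62 and -4.57 in the vector cells. Unlike Hoxb7, Hoxa7 and Hoxb6, the rescue arrays lay within the range of the vector arrays. The difference of 3.76 ± 0.08 amounted to 13.5-fold.

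Hoxa9, a driver of leukaemia, had log2 ratios of -0.21, -0.16 and -0.21 in the knockdown, -1.83 and -1.72 in the rescues and -1.49, -2.32 and -2.01 in the vector cells. The difference was 1.75 ± 0.18 (3.35-fold), with 2 of the 3 vector arrays well above background. Hoxb9 had log2 ratios of 0.21, 0.20 and 0.14 in the knockdown, -1.51 and -1.08 in the rescues and -1.62, -1.40 and -1.35 in the vector cells. Its difference was 1.64 ± 0.07 (3.12-fold), and its dimmer probe gave 2.84.

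Hoxd9 had log2 ratios of 1.13, 1.01 and 0.90 in the knockdown, -0.44 and -0.74 in the rescues and -0.42, -0.39 and -0.28 in the vector cells. Both rescue arrays lay below the vector arrays, and knockdown and vector differed by 1.38 ± 0.07 (2.61-fold), or by 0.86 on its dimmer probe. On the probe used for each, the 3 members of group 9 that act jointly in the mammary gland were over 2-fold above the vector in the knockdown. These are Hoxa9, Hoxb9 and Hoxd9, with Hoxd9 past 2-fold on its brighter probe only.

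From group 10 on the differences were small. Hoxa10 was called at 0.51 ± 0.06 and Hoxc13, a gene of hair formation, at 0.24 ± 0.08, a call that was lost without any one of the 3 knockdown arrays (0.26, 0.23 and 0.23) or without vector replicate 2 (0.15) or 3 (0.25). Hoxa13, Hoxb13, Hoxc10, Hoxd11, Hoxd12 and Hoxd13 lay between -0.03 and 0.06 and were not called. Hoxa11, Hoxc12 and Hoxd10 were not tested. The 25 genes of groups 1 to 9 had a median log2 difference of 1.64, with 16 at least 2-fold higher. The 11 genes of groups 10 to 13 had a median of 0.01, ranged from -0.03 to 0.51, and 0 were 2-fold higher. That last count depends on the processing, since Hoxa10 differed by 1.41, past 2-fold, with the software's log ratios. This division was drawn after the values had been seen and carries no test. By cluster, the median was 0.51 for the 11 Hoxa genes, 1.71 for the 10 Hoxb genes, 0.31 for the 6 Hoxc genes and 0.06 for the 9 Hoxd genes.

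Levels of different genes cannot be ranked on these arrays, so each gene is described by its range over the 8 arrays. The size of a range depends on the processing, as the differences do, and ranges were not ranked. In a dim gene a small range need not mean a level gene. In 14 of the 36 genes the log2 ratio spanned less than 0.5 over all 8 arrays, among them the measured genes Hoxa3, Hoxa6, Hoxa13 and Hoxd12. The Cy3 reference was well above background on all 8 arrays for 32 of the genes.

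The genes on either side of the clusters did not show differences of that size. The 5 nearest named protein-coding genes with a probe on each side of each cluster made up 40 genes, of which 39 were tested. Of these, 12 were called higher and 10 lower, beside 23.7% and 21.1% of all features. Of the 39, 0 were at least 2-fold different, beside 2.27% higher and 1.52% lower of all features, and the median log2 difference was 0.08. Evx1 and Evx2, homeobox genes next to group 13 of the Hoxa and Hoxd clusters, had differences of -0.01 and 0.30, and only Evx2 was called (limma, adjusted p = 0.027). The call of Evx2 was lost without knockdown replicate 2 (0.29) or 3 (0.22) or vector replicate 2 (0.29) or 3 (0.28), and with the Cy5 channel alone (0.39).

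**Figure D2:**
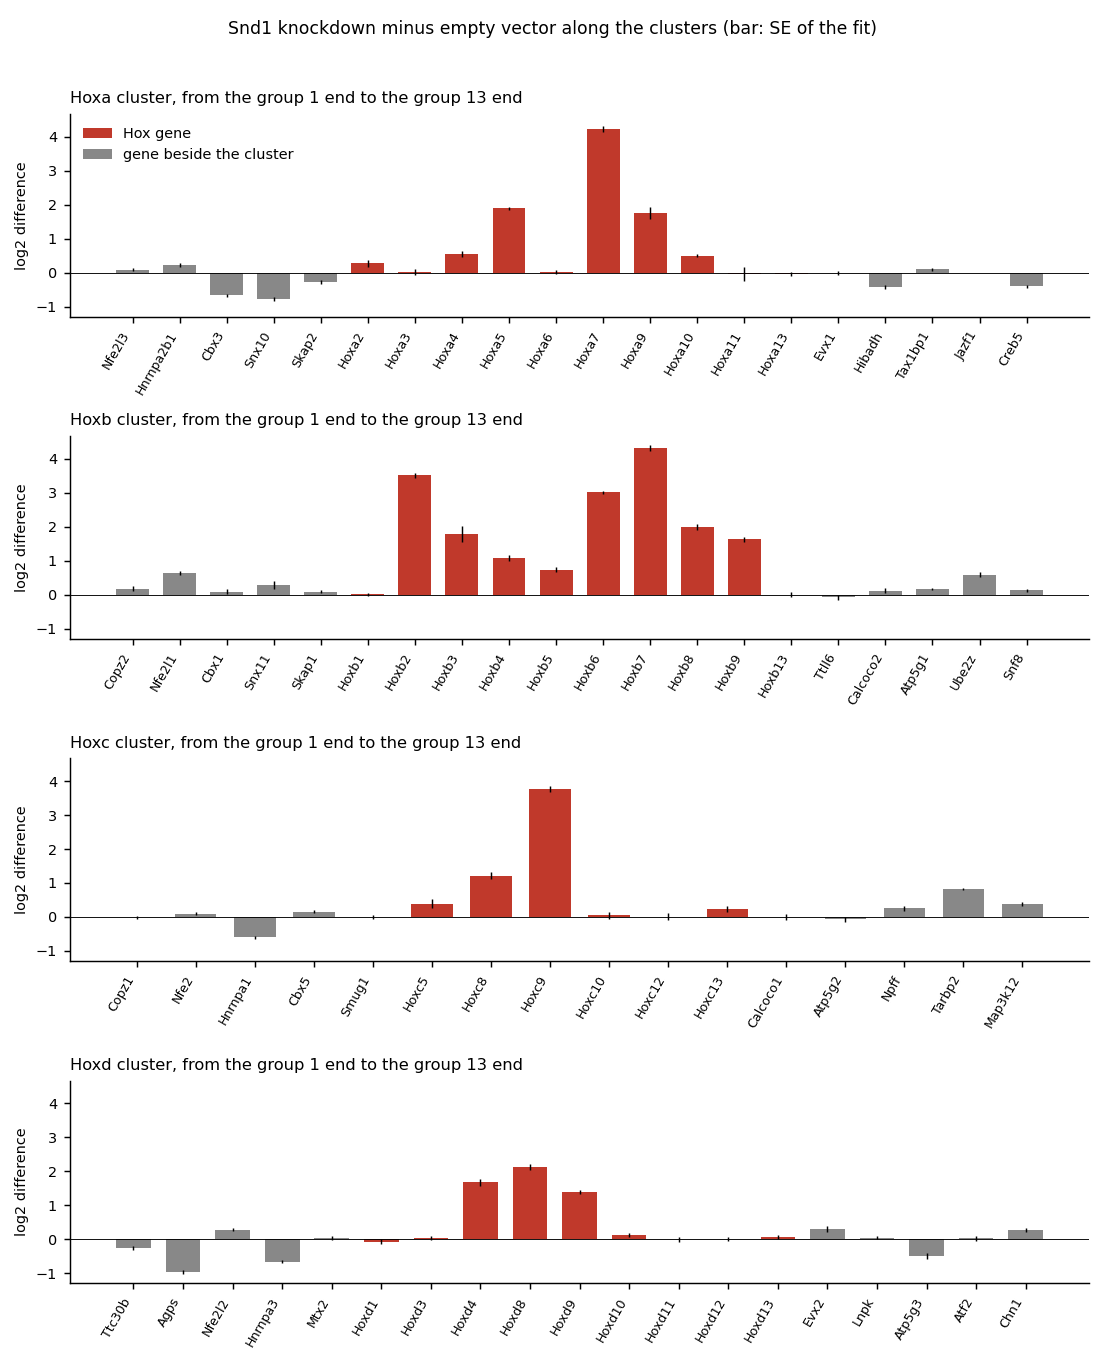
Log2 difference, knockdown minus vector (vertical axis), for 35 Hox genes in the order of its paralog number (red) and for the 5 nearest genes on each side of its cluster (grey); the lines on the bars are standard errors of the fit. The tall bars lie in groups 1 to 9, up to 4.31 for Hoxb7, and no grey bar reaches a 2-fold difference.

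In the rescue cells, 5 Hox genes were at least 2-fold above the vector mean, the same 5 with wild-type and with W391D Mtdh, and 0 were 2-fold lower. Of 23 Hox genes with Cy5 well above background on both rescue arrays or on all 3 vector arrays, Hoxb6 differed from the vector mean by 1.73 with wild-type and 1.82 with W391D Mtdh on the log2 scale. Among the others past 2-fold, Hoxa7 differed by 1.49 and 1.40, Hoxb4 by 1.44 and 1.22, and Hoxb7 by 1.30 and 1.28 (wild-type and W391D). Among all features, 2.34% were at least 2-fold higher with wild-type Mtdh and 2.05% with W391D, and 1.03% and 0.836% were lower. With the software's own log ratios, 9 Hox genes were 2-fold higher with wild-type Mtdh. These cells and the vector cells differ in line, Mtdh genotype, construct, selection and slide, which cannot be told apart. There is 1 array per construct, so no test was possible.

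For the other members the rescue arrays lay within 2-fold of the vector mean. Only 23 of the 36 genes met the rule on Cy5 signal above. For the rest, dim signal limits what a small difference means. Both rescue arrays lay above all 3 vector arrays in 11 of the 36 Hox genes and below them in 5, against 30.3% and 24.7% of all features. The difference of Hoxa5 from the vector mean was 0.82 with wild-type and 0.74 with W391D Mtdh, and that of Hoxc9, 0.09 and 0.13. Between the W391D and the wild-type rescue, 0 of 29 measured Hox genes differed 2-fold, against 0.0037% of all features. The largest difference, W391D minus wild-type, was that of Hoxb9, at 0.43. Since knockdown and rescue were both set against the same 3 vector arrays, their differences are given side by side and were not correlated.

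**Figure D3:**
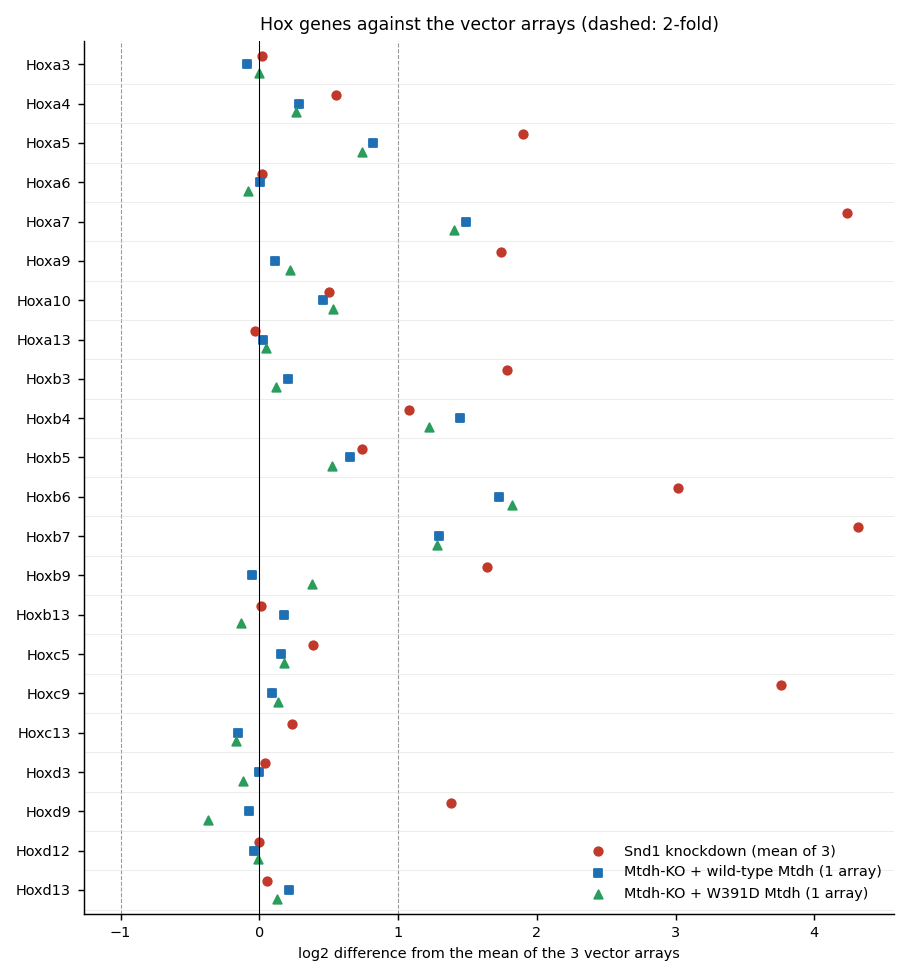
Log2 difference from the mean of the 3 vector arrays (horizontal axis) for 22 Hox genes measured in rescue or vector cells; circles are the mean of the 3 knockdown arrays, squares the wild-type Mtdh rescue and triangles the W391D rescue (1 array each), and dashed lines mark 2-fold. Hoxb4 is highest in the rescue cells, Hoxb7, Hoxa7 and Hoxb6 are highest in the knockdown with the rescue cells between, and Hoxc9, Hoxa9 and Hoxb9 are high in the knockdown alone.

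The proteins that act with or on the Hox clusters were called in both directions, and the called differences were under 2-fold except for Egr2 and Cyp26b1. Among the 9 TALE cofactors, 5 were higher and 2 lower in the knockdown, beside 23.7% and 21.1% of all features, with a median log2 difference of 0.18 against 0.02 over all features tested. Pbx4 (0.53 ± 0.05), Meis3 (0.50 ± 0.05) and Pknox1 (0.44 ± 0.05) rose and Pbx3 (-0.41 ± 0.05) fell (limma, adjusted p between 4.63e-05 and 0.000134). The second probe of Pbx4 gave 0.17, and the call of Meis3 was lost with the software's log ratios (0.63).

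Of 11 subunits and partners of Polycomb repressive complex 2 (PRC2), 3 rose and 5 fell (23.7% and 21.1% of all features did), with a median of -0.03. Phf1, a partner that helps recruit the complex, was higher by 0.97 ± 0.05, and Ezh2, its methyltransferase, was lower by a log2 difference of -0.84 ± 0.05 (limma, adjusted p = 1.68e-06 and 2.64e-06). Ezh2 had log2 ratios of -1.21, -1.17 and -1.13 in the knockdown, 0.37 and 0.34 in the rescues and -0.30, -0.37 and -0.31 in the vector cells, so that the rescue cells had the most and the knockdown the least. Suz12, a core subunit, fell (-0.48 ± 0.05), while Eed, the other core subunit that reads the mark, rose (0.42 ± 0.06).

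Of 18 members of Polycomb repressive complex 1, 5 rose and 7 fell, beside 23.7% and 21.1% of all features, with a median of 0.08. Pcgf5 (-0.67 ± 0.05), Phc3 (-0.48 ± 0.05) and Yaf2 (-0.41 ± 0.05) fell, although the other probe of Phc3 gave 0.03. Of 16 Trithorax and MLL genes, 3 rose and 8 fell, beside the same 23.7% and 21.1% of all features, with a median of -0.14. Kdm6b, a demethylase that removes the Polycomb mark, rose (0.72 ± 0.05), and Dpy30 (-0.60 ± 0.04), a subunit of the MLL complexes, and Mllt3 (-0.62 ± 0.07) fell, with other probes of Mllt3 at -0.08 to -0.70. Wdr5, another MLL subunit, was called lower at -0.34 ± 0.04 on its brighter probe and stood at 0.52 on the other, and at 0.0869 with the mean of both, so its direction is not settled.

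Of 16 tested upstream regulators, which include retinoic acid enzymes and receptors, 6 rose and 2 fell, with a median of 0.08; of all features, 23.7% rose and 21.1% fell. Egr2, the zinc finger factor that drives Hoxb2 in the hindbrain, had log2 ratios of 0.78, 0.92 and 0.79 in the knockdown, -1.77 and -2.10 in the rescues and -2.27, -2.01 and -2.08 in the vector cells. It rose by 2.95 ± 0.07 (limma, adjusted p = 7e-08). Cyp26b1, which breaks down retinoic acid, rose (1.02 ± 0.06), as did the receptor Rxra (0.58 ± 0.06), and Crabp2, a carrier of retinoic acid, fell (-0.29 ± 0.05). Cdx1, Cdx2 and Cdx4, homeobox factors that activate the middle of the clusters, were not tested.

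Of 41 tested homeobox genes outside the clusters, 14 rose and 4 fell, with a median of 0.11, beside 23.7% and 21.1% of all features, so the share called is close to that of all features (44.8% either way). Dlx2, a factor of forebrain and jaw, had log2 ratios of 0.96, 1.01 and 0.96 in the knockdown, -2.41 and -2.58 in the rescues and -3.20, -2.86 and -2.69 in the vector cells, and rose by 3.89 ± 0.12 (limma, adjusted p = 1.6e-07). Prrx1, a mesenchymal factor, rose by 2.02 ± 0.07, with its other probes at 1.43, 0.22 and 1.26. Zeb2, a repressor of epithelial genes, rose by 1.04 ± 0.05, with other probes at -0.02 and 0.68. En1 was called too but was not well above background on any vector array.

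Markers of other cell types were set beside the Hox genes in the same contrast. Of 15 tested fibroblast markers, 10 rose and 0 fell, beside 23.7% and 21.1% of all features, with a median of 0.40. Among them were Postn (2.72 ± 0.04), Pdgfrb (2.44 ± 0.05), Col1a1 (2.39 ± 0.07, with other probes at 0.20 and 0.72) and Col6a3 (1.87 ± 0.05, with other probes at -0.02 and 0.04). Of the 17 with a probe, 14 had Cy5 well above background on all 3 knockdown arrays and 14 on all 3 vector arrays. Dcn, Lum, Thy1 and Twist1 were not called, and Fap and Dpt were not tested. The mean log2 ratio of the fibroblast list was -2.03 to -2.08 in the knockdown, -2.97 and -2.99 in the rescues and -2.81 to -2.85 in the vector cells. Of 15 epithelial markers, 9 fell and 3 rose, with a median of -0.30, beside the same shares of all features. Elf5, a factor of milk-forming cells, fell by 2.03 on the log2 scale (SE 0.10), Krt14 by 1.15 (SE 0.07) and Krt8 by 0.86 (SE 0.05), and Elf3 rose (0.69 ± 0.05). The mean of the epithelial list was 1.45 to 1.5 in the knockdown, 2.42 and 2.37 in the rescues, and 1.79 to 1.89 in the vector cells.

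Of 8 tested endothelial markers, 2 were called higher and 2 lower, with Flt1 at 0.72 ± 0.04 and Emcn at -0.30 ± 0.05. Of 9 tested leukocyte markers, 1 was called higher and 2 lower, with Cd14 at -0.47 ± 0.05. Among all features 44.8% were called in either direction, and nothing is read from these counts. The mean log2 ratio of all 36 Hox genes was -0.06 to 0.06 in the knockdown, -0.81 and -0.79 in the rescues and -1.01 to -1.19 in the vector cells. In such bulk RNA, more cells of one type and more RNA per cell cannot be told apart, and the part of the marker shifts in the Hox differences was not tested.

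**Figure D4:**
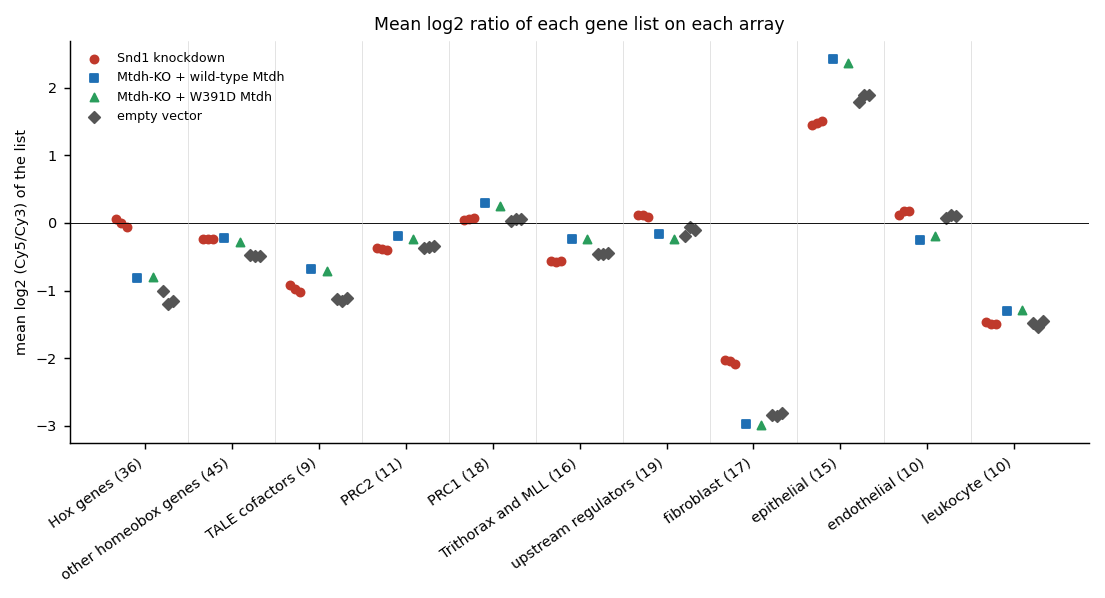
Mean log2 Cy5/Cy3 (vertical axis) of the Hox genes and of 10 gene lists on each array, with the number of genes with a probe in parentheses; each symbol is 1 array, in the order knockdown, wild-type Mtdh rescue, W391D rescue and vector. The Hox mean lies at -0.06 to 0.06 in the knockdown and at -1.01 to -1.19 in the vector cells; the fibroblast list is higher and the epithelial list lower in the knockdown, and the Polycomb lists have nearly the same mean in both.

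The size of the differences was not the same with the software's own log ratios, which differ in both background subtraction and dye normalization. With them, 16 of the 21 called Hox genes differed by more than 1.5 times the value given. Examples are Hoxb2 (5.51), Hoxd4 (4.19), Hoxc8 (4.24) and Hoxb8 (3.98), while Hoxb7 (4.61), Hoxa7 (4.71), Hoxc9 (4.38) and Hoxb6 (3.58) moved less. Hoxb5 (1.40) and Hoxa10 (1.41), given above with differences under 2-fold, were past 2-fold with these log ratios.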

How the data were processed

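RNA of 8 samples was hybridised on 2-colour Agilent arrays, with the sample in Cy5 and Universal Mouse Reference RNA in Cy3 on every array and no dye swap, per the labels' protocols. The deposited spot intensities are median pixel signals of each dye and its local background, not normalized, from Agilent Feature Extraction 11.0.1.1, per the file headers (9.5.3.1 per the submitters' processing notes). Per the file headers, the log10 ratios of Cy5 over Cy3 beside them come from the same software after it subtracted background and normalized the dyes. A value table deposited for all arrays gives log2 ratios that match these (r from 0.9878 to 1 over 41156 probes) and is not centred, with column medians of 0.026 to 0.146. The design had not foreseen median signals, which were used throughout.

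With limma 3.58.1 in R 4.3.3, signals were background-corrected (normexp, offset 50) and normalized within each array by loess, and control spots (1639) and outlier spots (77 to 142 per array) were left out. No spot was saturated. Probes were named through their unversioned accession in a RefSeq table of GRCm38.p6, a later build than the one in the headers. RefSeq coordinates were used only for the promoter windows and for the order of genes in and beside the clusters. Per gene the probe brightest over the 8 arrays was used (32053 features), and a probe in several spots counted as well above background where most or an equal part of its spots did.

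Knockdown and vector were compared by lmFit and eBayes on features whose Cy5 passed the flag on 3 or more of the 6 arrays, with Benjamini-Hochberg adjustment over all of them and a call at an adjusted p under 0.05. This fit was first tested on simulated log ratios with known differences. The processing before it was not tested in this way. Rescue arrays were compared as differences only. Same-numbered knockdown and vector arrays deviated together from their group means (r = 0.597, 0.325 and 0.338), and were treated as pairs in an alternative. Their slides do the same, as differently numbered arrays that shared a slide gave 0.390 and 0.247.

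Per-array values are given for Hox genes that differ at least 2-fold and are well above background on all arrays of 1 of the groups, and up to 4 called members with the smallest p are named of each list. Genes that the rules took but that are not reported here stay in the counts and list means. The members, lists and rules were chosen with earlier results of these data known.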

Additional observations from a re-analysis of the deposited data

How the results depend on the processing

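Over 23 alternatives, including each array left out, the software's log ratios, the Cy5 channel alone and other filters, the number of Hox genes called higher lay between 13 and 22 (21 as reported) and the number called lower was 0 each time. It was 13 when Cy5 had to be well above background on all 6 arrays, since 9 called genes with dim vector values then left the test and Hoxc5 was added, and 22 with the replicate number as a block, where Hoxc5 was added to the same 21 genes. The block changed no call of another gene named here and moved no count by more than 1.5 times. Of all features, 6074 were called higher and 5423 lower, and 3628 and 4153 with the Cy5 channel alone. With a 2-fold difference required as well, 973 features were called, 584 higher and 389 lower, as were 13 list members in place of 94 and 0 genes beside the clusters in place of 22. With the Cy5 channel alone, 13 genes beside the clusters were called. The number of Hox genes at least 2-fold higher with wild-type Mtdh was 9 with the software's log ratios and with the series' value table. The number that differed 2-fold between W391D and wild-type Mtdh was 1 with either of these and 1 with the Cy5 channel alone. Wdr5 reversed to 0.0869 with the mean of its probes. The other probe of the Hox genes, tried after seeing the data, ended the call of Hoxb8 (0.04). The cause of these changes was not tested. Of the 36 Hox genes, 18 had Cy5 well above background on all 8 arrays, and signal over background limits the values of the others.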
